A study of Mus musculus with 4 samples.

Results

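The genes described here are the cyclins, the kinase Cdk1 and the regulators that bring a cell into mitosis. They are Ccnb1, Ccnb2, Ccna2, Cdk1, Cdc25a, Cdc25b, Cdc25c, Wee1, Pkmyt1 and Plk1, chosen by name, and all 10 were found among the 37311 gene identifiers of the files. The cells were J1 mouse embryonic stem cells, a line of strain 129S4/SvJae, grown without feeders in serum and leukaemia inhibitory factor and infected with short hairpin RNAs against eIF4A3. eIF4A3 is the RNA helicase at the core of the exon junction complex. Cells were selected with 1 μg/mL puromycin for 3 days and taken on day 4.5, after 1 min in 0.1 mg/mL cycloheximide, which holds ribosomes on their mRNAs. Ribosome protected fragments (RPF), the stretches of mRNA that ribosomes shield from nuclease, were sequenced from 2 biological replicates, and total RNA from another pair of libraries with the same replicate numbers. All 4 libraries came from knockdown cells, so the comparison is between RPF and total RNA within the knockdown. The study names 2 hairpins, sheIF4a3-2 and sheIF4a3-3; which of them each library received is not stated in these sources. Libraries without the knockdown were not analysed here.

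Entry into mitosis is driven by cyclin-dependent kinase 1, the product of Cdk1, bound to cyclin A2 and then to cyclins B1 and B2. The kinases WEE1 and PKMYT1 hold the complex inactive by phosphorylating CDK1, and the CDC25 phosphatases remove those phosphates. Polo-like kinase 1, the product of Plk1, promotes the switch by activating CDC25 and marking WEE1 for destruction. Mouse embryonic stem cells are known for a short first gap phase and for a large share of cells in S phase and G2, and the mitotic cyclins are destroyed by the anaphase-promoting complex in each cycle.

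Translation of the coding sequence begins at the start codon, so the start sites of the members are shown. Each has 6 bases of leader and the 3 coding bases that follow. The start codon is in capitals. The sequences are from GENCODE M21 transcripts (GRCm38), and the genes lie on chromosomes 13, 9, 3, 10, 9, 2, 7, 17 and 7 in the order of the lines.
Ccnb1: ggagccATGgcg
Ccnb2: gccctcATGgcg
Ccna2: gccgcgATGccg
Cdk1: gtaactATGgaa
Cdc25a: ggcgccATGgaa
Cdc25b: gccacgATGgag
Wee1: cgggaaATGagc
Pkmyt1: ttggccATGacc
Plk1: ggcatcATGaat
A purine stood 3 bases before the start codon in 8 of these 9 windows, Ccnb2 being the exception, and a G directly after it in 5. Of the 10 chosen transcripts, 7 had no upstream start codon in the leader. Ccnb1 and Cdc25c each had 1 and Pkmyt1 had 2.

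Several of these genes are known targets of the MuvB and NF-Y factors, which act through TTTGAA and CCAAT elements near the start site. Parts of the annotated promoters of Ccnb2 and Cdk1 are shown. The window of each, 250 bases before and 50 after the start, holds 3 CCAAT and 2 TTTGAA, and that of Plk1 holds 1 of each. The printed stretches leave out a TTTGAA at -167 from the start in Ccnb2 and a CCAAT at -208 in Cdk1. Capitals mark CCAAT and TTTGAA on either strand (ATTGG is CCAAT on the other strand). The sequences are from RefSeq (GRCm38.p6), chr9:70421540-70421646 and chr10:69352917-69352997, minus strand.
Ccnb2: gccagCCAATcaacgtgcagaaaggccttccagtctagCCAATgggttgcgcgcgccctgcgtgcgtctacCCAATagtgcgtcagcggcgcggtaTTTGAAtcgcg
Cdk1: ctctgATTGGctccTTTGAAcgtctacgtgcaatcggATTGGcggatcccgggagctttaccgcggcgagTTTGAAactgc
The Ccnb2 stretch runs from 92 bases before the annotated start to 14 after it, and the Cdk1 stretch from 85 to 5 bases before it. In windows of 250 bases before and 50 after the start, CCAAT occurred in all 6 members with an entry (Ccnb1, Ccnb2, Cdk1, Cdc25a, Cdc25b and Plk1), and in 37.4% of all 32851 promoters of that length. TTTGAA occurred in 3 of the 6, Ccnb2, Cdk1 and Plk1, and in 17.9% of all promoters; 6.95% of all promoters held both. The motifs do not overlap each other, and a match describes letters only.

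Gene counts per library came to 9434987 and 7615277 for RPF and to 8969965 and 8218020 for total RNA. The 10 genes together took 0.157% and 0.168% of the RPF counts and 0.129% and 0.131% of the total RNA counts. Summed levels of 8 stem cell markers were 6222 and 5786 against 4154 and 3769 CPM (reads scaled to a common library total after TMM scaling), RPF first, with all 8 genes present. Those of 7 fibroblast markers were 12.9 and 11.5 against 5.58 and 5.16 CPM, with Dcn at 0 counts in all 4 libraries; 4 trophectoderm markers summed to 6.08 and 6.85 against 4.60 and 5.88 CPM and 4 primitive endoderm markers to 35.6 and 32.4 against 25.7 and 19.3 CPM. The part of such cells in the results was not tested, and in bulk samples fewer cells of a type and less RNA per cell cannot be told apart. Eif4a3 itself, the hairpins' target, had 212 and 193 CPM in RPF against 120 and 101 CPM in total RNA (0.87 ± 0.15, adjusted p = 0.00477). In a fit adjusted for gene structure (a loess curve on the coding fraction and the length of the exons) its ratio was 0.45 (adjusted p = 0.0542).

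Footprints were high relative to total RNA for 6 of the 10 mitotic entry genes, a number that varied with the fit. The ratio of RPF to total RNA passed as higher for 6 of the 10 (Plk1, Cdk1, Ccnb1, Wee1, Cdc25c and Ccnb2), passed as lower for Cdc25b, and did not pass for Ccna2, Cdc25a and Pkmyt1; scaled by library size alone, 3 passed as higher and 2 as lower. Over all 13809 genes tested, 20.5% passed as higher and 21.2% as lower, 41.7% in either direction. The members' median log2 ratio was 0.57, against -0.02 for all tested genes. The test was edgeR's quasi-likelihood fit with Benjamini-Hochberg adjustment over all tested genes at 0.05, and log2 ratios are given ± SE. RPF and total RNA levels did not overlap for 8 members, 7 of them with RPF above. For comparison, 72.8% of all tested genes did not overlap, 34.9% with RPF above. Whether the replicates differ by hairpin is not stated. The p-values measure the spread between these libraries only. Of all genes that passed, 49.2% were higher with TMM and 19.8% with library size as the only scaling. Under the scaling by size, the members that passed were Plk1, Cdk1 and Ccnb1 as higher and Ccna2 and Cdc25b as lower. The median of all tested genes was then -0.46 and the members' median 0.13. The distance between these medians was 0.59, as with TMM. A change of scaling moves all ratios by nearly the same amount, so this distance could hardly change. Members passing as higher numbered 5 in the fit adjusted for gene structure and 4 with no count filter. Fits without a library leave 1 in its fraction, which is assumed to vary like the other fraction. Without total RNA replicate 1 the count of members passing as higher was 3, and without total RNA replicate 2 it was 4 with 0 lower (1 lower at an unadjusted p under 0.05).

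**Figure D1:**
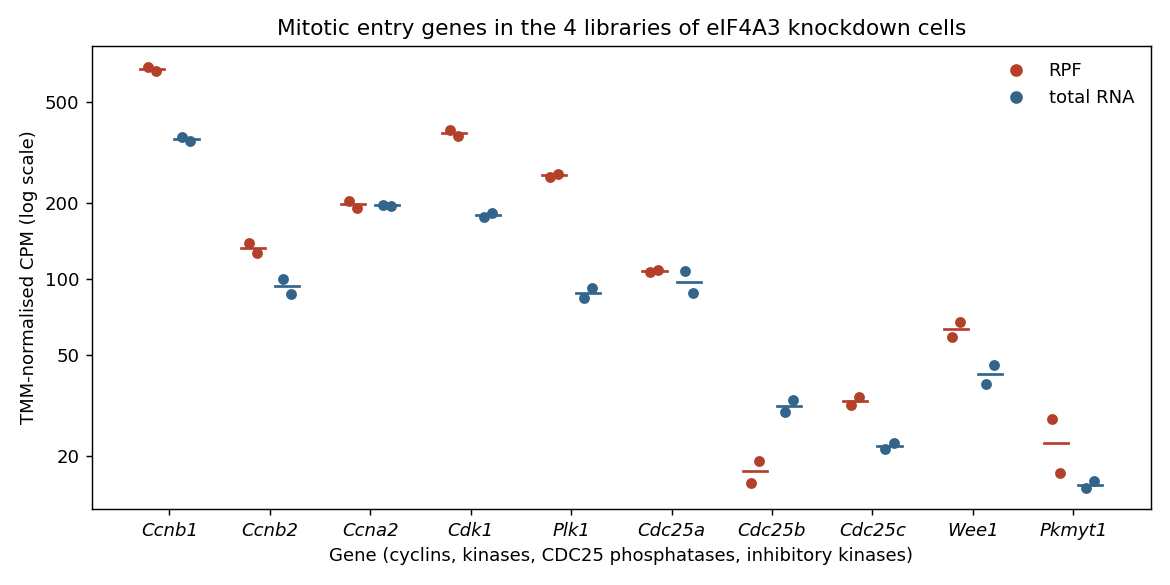
TMM-normalised CPM (log scale) of the 10 genes in the RPF libraries (red, left) and total RNA libraries (blue, right) of eIF4A3 knockdown cells; points are libraries and bars the mean of 2. RPF lay above total RNA without overlap in 7 genes, below it in Cdc25b, and overlapped it in Ccna2 and Cdc25a.

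Among the cyclins, Ccnb1 had the highest ratio, Ccnb2 a smaller one, and Ccna2 had nearly equal levels in both fractions. Ccnb1, which encodes cyclin B1, the main mitotic partner of CDK1, had 690 and 668 CPM in RPF replicates 1 and 2 against 363 and 352 CPM in total RNA replicates 1 and 2. Both RPF libraries lay above both total RNA libraries. Its log2 ratio was 0.92 ± 0.16 (adjusted p = 0.00416; mean 679 ± 15.6 against 358 ± 7.99 CPM, SD, n = 2 libraries per fraction). Across the 12 alternative settings its ratio stayed above 0 and passed, with an adjusted p of up to 0.0497, the highest without total RNA replicate 2.

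Ccnb2 encodes cyclin B2, a second B-type partner of CDK1 that in mammals is found mostly at the Golgi apparatus. Its levels were 139 and 127 CPM in RPF against 100.3 and 87.2 CPM in total RNA, again without overlap but closer together. The ratio on the log2 scale was 0.50 ± 0.14 (adjusted p = 0.028). The call ended without RPF replicate 1 (adjusted p = 0.0593), total RNA replicate 1 (0.0788) or total RNA replicate 2 (0.261). It also ended with no count filter (0.0609) and when libraries were scaled by size alone (0.072, adjusted p = 0.706). In the fit adjusted for gene structure the ratio was -0.0049 (adjusted p = 0.984).

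Ccna2 encodes cyclin A2, which acts with CDK2 in S phase and with CDK1 at the start of mitosis. It had 204 and 192 CPM in RPF against 197 and 194 CPM in total RNA, so that the fractions overlapped. On the log2 scale its ratio was 0.016 ± 0.14 (adjusted p = 0.935). With library size only it passed as lower (-0.42, adjusted p = 0.0414). Exosc9, on the opposite strand, overlaps 12.5% of the exon bases of Ccna2 and none of its coding bases. It had 771 and 571 counts in RPF against 556 and 496 in total RNA, and its part in the Ccna2 values was not tested.

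Both kinases that drive entry stood among the highest ratios of the group. Plk1 had 253 and 261 CPM in RPF against 83.9 and 92.5 CPM in total RNA. Each RPF library was far above both total RNA libraries, and the lowest RPF value exceeded the highest total RNA value by 1.45 on the log2 scale. The log2 ratio of 1.54 ± 0.14 (adjusted p = 0.000742) was at or above that of 96.5% of all tested genes. Cdk1 had 389 and 368 CPM in RPF against 175 and 182 CPM in total RNA, also without overlap. Its log2 ratio was 1.08 ± 0.14 (adjusted p = 0.00187), at or above that of 91.0% of tested genes. Plk1 and Cdk1 passed as higher in all 12 alternative settings, with ratios of 1.11 to 1.62 for Plk1 and 0.65 to 1.36 for Cdk1.

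Of the 3 CDC25 phosphatase genes, Cdc25c passed as higher, Cdc25b as lower and Cdc25a in neither direction. Cdc25b, whose product acts on cyclin B complexes at the centrosome, was the only member to pass as lower. It had 15.6 and 19.1 CPM in RPF against 29.7 and 33.2 CPM in total RNA, with 121 and 131 reads behind the RPF values. Both RPF libraries lay below both total RNA libraries. Its log2 ratio was -0.86 ± 0.19 (adjusted p = 0.012); it stayed below 0 in all 12 settings, and the call ended without total RNA replicate 2 (-0.77, adjusted p = 0.0808). Spef1, on the opposite strand, overlaps 5.19% of its coding bases and had 17 and 6 counts in RPF against 16 and 28 in total RNA.

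Cdc25c, a phosphatase activated by CDK1 and PLK1 in mitosis, had 31.7 and 34.1 CPM in RPF against 21.3 and 22.5 CPM in total RNA. The fractions did not overlap, and the log2 ratio was 0.59 ± 0.17 (adjusted p = 0.029). The call ended in 6 settings: without RPF replicate 2 (adjusted p = 0.0619), total RNA replicate 1 (0.186) or total RNA replicate 2 (0.138), with no count filter (0.058), with DESeq2 (0.0673) and with library size only (0.16, adjusted p = 0.549). Cdc25a, which also acts at the entry into S phase and is degraded after DNA damage, had 106 and 108 CPM in RPF against 107 and 88.1 CPM in total RNA. These values overlapped, with RPF replicate 1 below total RNA replicate 1. For Cdc25a the log2 ratio was 0.14 ± 0.15 (adjusted p = 0.496). It passed as higher in the fit adjusted for gene structure (0.45, adjusted p = 0.0493), stood at -0.29 with library size only (adjusted p = 0.166) and at 0.0011 without total RNA replicate 2 (adjusted p = 0.998).

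Of the inhibitory kinases, Wee1 passed as higher and Pkmyt1 did not. Wee1, the nuclear kinase, had 58.8 and 67.6 CPM in RPF against 38.5 and 45.5 CPM in total RNA. The fractions did not overlap. Its log2 ratio was 0.59 ± 0.16 (adjusted p = 0.0228), and the call ended without total RNA replicate 1 (0.47, adjusted p = 0.177), under scaling by size alone (0.16, adjusted p = 0.521) and in the fit adjusted for gene structure (0.38, adjusted p = 0.0969).

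Pkmyt1, the membrane-bound kinase, had 28.1 and 17.1 CPM in RPF against 14.9 and 15.9 CPM in total RNA. The RPF libraries were both higher but stood far apart, at 217 and 117 reads. For Pkmyt1 the log2 ratio was 0.55 ± 0.27 (adjusted p = 0.14). It passed without RPF replicate 2 (0.87, adjusted p = 0.00733) and with replicate number as a block (adjusted p = 0.00385). Paqr4, on the opposite strand, overlaps 12.7% of the coding bases of Pkmyt1 and had 9 and 6 counts in RPF against 14 and 7 in total RNA.

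**Figure D2:**
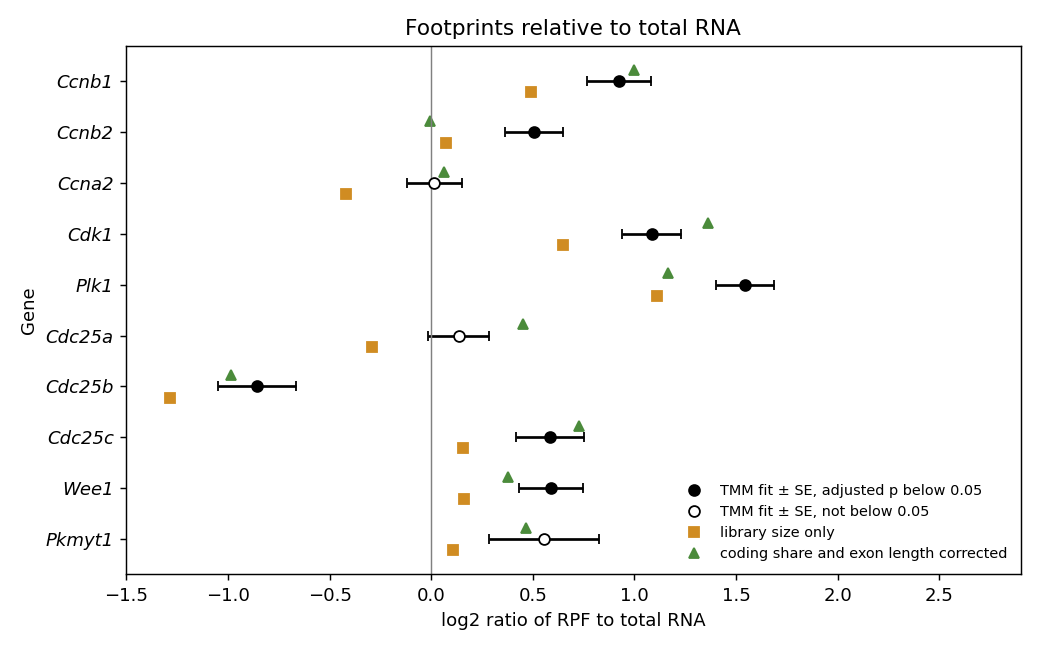
Log2 ratio of RPF to total RNA for each gene: circles show the TMM fit with SE bars (filled where the adjusted p was below 0.05), squares library size only, and triangles the fit adjusted for gene structure. Plk1, Cdk1, Ccnb1, Wee1, Cdc25c and Pkmyt1 lay above 0 under all 3 and Cdc25b below 0. Ccnb2 moved to -0.0049 in the adjusted fit.

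Proportions between the members inside one library do not depend on how libraries are scaled. The shares of the 10 genes make up a whole in each library, so a larger share of one means smaller shares among the others. Ccnb1 made up 35.9% ± 0.121 of the 10 genes' counts in RPF, against 31.9% ± 0.360 in total RNA (SD, n = 2 libraries each). Cdk1 made up 20.3% and 19.8% in RPF against 15.5% and 16.3% in total RNA, and Plk1 13.6% ± 0.570 against 7.86% ± 0.627. These 3 took larger shares in both RPF libraries than in either total RNA library. Smaller shares in both RPF libraries than in either total RNA library were seen for 5 members. Ccna2 stood at 10.6% and 10.3% in RPF against 17.4% and 17.5% in total RNA. Ccnb2, although its ratio passed as higher, stood at 7.25% and 6.83% in RPF against 8.87% and 7.83% in total RNA. The others were Cdc25a (5.56% and 5.81% against 9.48% and 7.92%), Cdc25b (0.817% and 1.03% against 2.62% and 2.99%) and Cdc25c (1.65% and 1.83% against 1.89% and 2.02%). Wee1 had 3.07% and 3.63% in RPF against 3.40% and 4.09% in total RNA, and Pkmyt1 1.47% and 0.916% against 1.32% and 1.43%. The shares of Wee1 and Pkmyt1 overlapped between fractions.

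**Figure D3:**
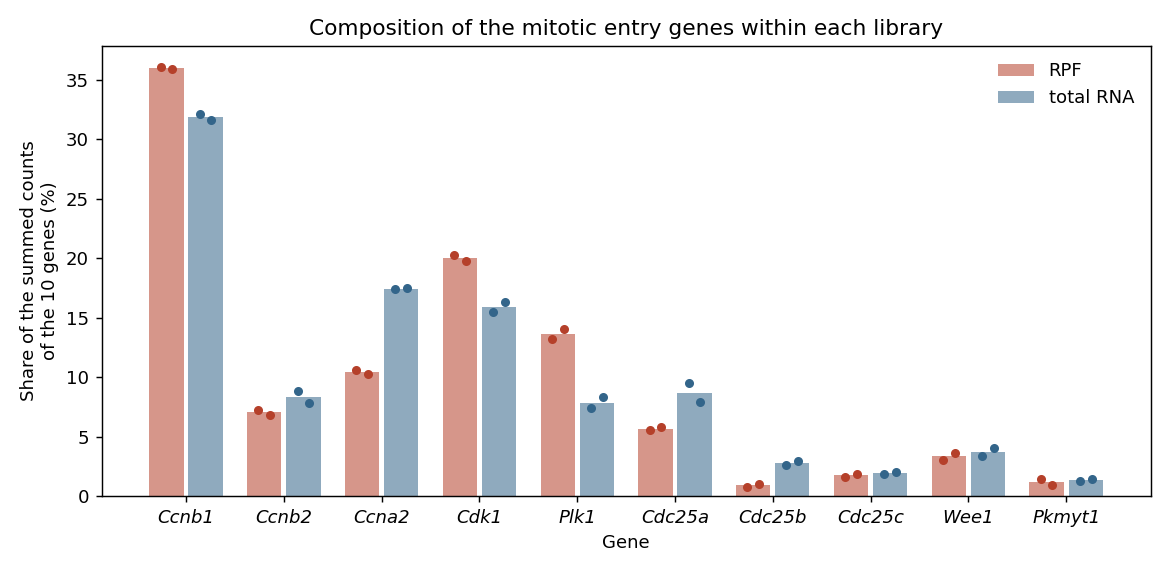
Share of each gene in the summed counts of the 10 genes (%), in RPF (red, left) and total RNA (blue, right); points are libraries and bars the mean of 2. Plk1, Cdk1 and Ccnb1 held larger shares in RPF, and Ccnb2, Ccna2, Cdc25a, Cdc25b and Cdc25c smaller ones.

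Ratios between members restate the same counts by pair. There were 3.39 and 3.48 Ccnb1 reads for each Ccna2 read in RPF, against 1.85 and 1.81 in total RNA. For each Ccnb2 read there were 4.97 and 5.25 Ccnb1 reads in RPF, against 3.62 and 4.04 in total RNA. The fractions did not overlap for either pair. The ratio of Cdk1 to Ccnb1 moved less, with 0.564 and 0.552 in RPF against 0.482 and 0.517 in total RNA. Between the inhibitory kinase Wee1 and its target Cdk1 the ratio was 0.151 and 0.184 in RPF and 0.22 and 0.25 in total RNA. Cdc25a reads outnumbered Cdc25b reads 6.8 and 5.66 times in RPF, against 3.61 and 2.65 times in total RNA. For Wee1 to Pkmyt1 the ratios overlapped, at 2.1 and 3.97 in RPF against 2.59 and 2.86 in total RNA. These proportions were not tested.

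Levels were compared between genes per length, as CPM per kb of coding sequence in RPF and per kb of annotated exon in total RNA. In RPF, Ccnb1 was highest at 535 and 518, followed by Cdk1 at 436 and 413. Ccna2 (155 and 146), Plk1 (139.9 and 144) and Ccnb2 (116 and 107) came next. These 5 were clear of one another in both libraries. Cdc25a followed at 68.5 and 69.6, then Wee1 at 30.4 and 34.9, Cdc25c at 22.7 and 24.4, Pkmyt1 at 19.1 and 11.6, and Cdc25b at 8.82 and 10.8. These neighbours did not overlap either, although Ccna2 and Plk1, and Pkmyt1 and Cdc25b, were close to overlapping. In total RNA the order was Ccnb1 (86.1 and 83.5), Ccnb2 (65.5 and 57.0), Ccna2 (48.2 and 47.6), Plk1 (38.2 and 42.1) and Cdk1 (35.5 and 36.9). Below them stood Wee1 (11.3 and 13.3), Cdc25a (13.4 and 11.0), Cdc25b (7.96 and 8.91), Cdc25c (4.34 and 4.57) and Pkmyt1 (4.09 and 4.36). Wee1 and Cdc25a overlapped, and so did Cdc25c and Pkmyt1. The total RNA order depends on the length used, since annotated exons can exceed any one transcript: 8023 against 3632 bases in Cdc25a, and 4919 against 1945 in Cdc25c. Per kb of the chosen transcript, an alternative added after seeing the data, Cdc25a had 29.5 and 24.3 CPM and stood above Wee1. Ccna2, at 66.3 and 65.6, was then above Ccnb2, and Cdc25c, at 11.0 and 11.6, was above Cdc25b (9.60 and 10.8) and overlapped Wee1. Cdk1 (40.0 and 41.6) then overlapped Plk1. Ccnb1 was highest in total RNA with both lengths.

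**Figure D4:**
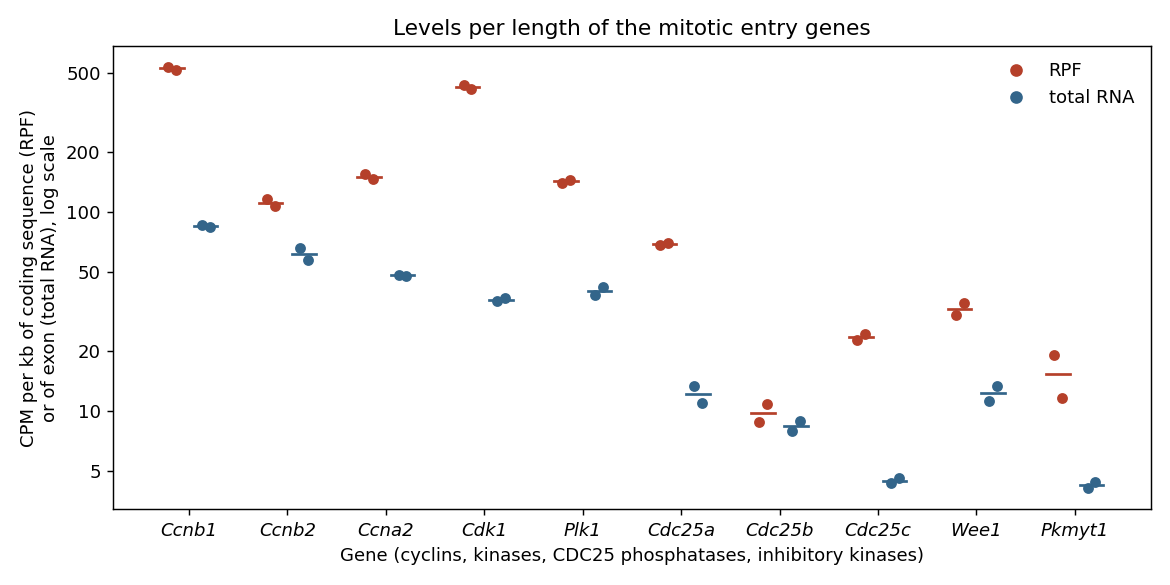
Levels per length (log scale), as CPM per kb of coding sequence for RPF (red, left) and per kb of exon for total RNA (blue, right); points are libraries and bars the mean of 2. Ccnb1 was highest in both fractions, Cdk1 came next in RPF, and Cdc25b was lowest in RPF.

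Gene structure differed widely among the members. Footprints come mostly from coding sequence and total RNA from whole transcripts. Across 12660 coding genes the ratio had a Spearman correlation of 0.21 with the coding share of the exons. With exon length the correlation was -0.31 (genes are not independent replicates). The coding share was 82.3% in Plk1, 78.0% in Ccnb2 and 56.7% in Wee1, but 19.4% in Cdc25a and 18.1% in Cdk1, against a median of 35.8% over 12655 tested coding genes. A loess fit on both properties gave an expected log2 ratio of 0.35 for Plk1, 0.48 for Ccnb2 and -0.31 for Cdk1. The measured ratios were 1.54, 0.50 and 1.08, so Plk1 and Cdk1 stood above the fit and Ccnb2 close to it. In the adjusted fit, Plk1 stood at 1.16 (adjusted p = 0.0017) and Cdk1 at 1.36 (adjusted p = 0.00125).

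Ccnb1 shares nearly all of its coding sequence with other places in the genome. Of the 28-base stretches of its coding sequence, 92.4% occur in another annotated gene, against 47.5% over the whole transcript and a median of 0 over tested coding genes. Only 2.71% of coding genes had as large a share. The processed pseudogene Ccnb1-ps, on chromosome 7, holds 80.4% of the stretches and Gm12856, on chromosome 4, 64.3%. Ccnb1-ps had 0 counts in all 4 libraries, which allows up to 0.294 to 0.437 CPM by library (3 counts, counting error only). Gm12856 had 0 and 1 counts in RPF against 0 and 1 in total RNA. Reads with more than 1 alignment, which were not assigned to a gene, made up 21.0% and 20.6% of tallied reads in RPF and 16.6% and 16.5% in total RNA. The values of Ccnb1 are therefore uncertain, and the part of the lost reads in its ratio was not tested. For Plk1 the share was 26.3%, of which Plk-ps1, with 0 counts in all 4 libraries, holds 21.4%; for Pkmyt1 it was 9.49%, and for each of the other 7 members below 4%.

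Other genes of the pathway were taken from 4 lists of 66 genes. Partners and activators of CDK1 and the Greatwall arm, which restrains the phosphatase PP2A, had a median log2 ratio of 0.45. Of the 18 tested genes, 10 were higher, 2 lower and 6 not passing. The shares were 55.6% higher and 11.1% lower, against 20.5% and 21.2% over all tested genes. Ccnb3, the remaining gene of this list, was below the count filter. Mnat1 and Cdk7, of the CDK-activating kinase, passed as higher (1.29 ± 0.14, adjusted p = 0.00106, and 0.63 ± 0.13, adjusted p = 0.00847). Mnat1 had 104 and 91.6 CPM in RPF against 39.8 and 40.0 CPM in total RNA, without overlap. Aurka, the kinase that activates PLK1, was higher at 0.81 ± 0.17 (adjusted p = 0.00882), and Ppp2r1a, the PP2A scaffold, at 1.27 ± 0.16 (adjusted p = 0.00155). The substrates of Greatwall that inhibit PP2A passed as lower. Ensa had 27.4 and 35.1 CPM in RPF against 98.1 and 104 CPM in total RNA (-1.69 ± 0.16, adjusted p = 0.000786), and Arpp19 52.9 and 55.3 against 70.1 and 75.7 CPM (-0.43 ± 0.13, adjusted p = 0.0374). Arpp19 lost its call without each of the 4 libraries (adjusted p = 0.0526 to 0.282), with the DESeq2 test (0.157) and with no count filter (0.05003). In the fit adjusted for gene structure its ratio was -0.024 (adjusted p = 0.906). Cdk7 lost its call without total RNA replicate 1 (0.0573) or 2 (0.0725) and under scaling by size alone (0.19, adjusted p = 0.306). Aurka lost its call without total RNA replicate 1 (0.0638), in the adjusted fit (0.50, adjusted p = 0.0526) and under scaling by size alone (0.39, adjusted p = 0.141). The count of higher genes was 7 without RPF replicate 1, 4 without total RNA replicate 1, 3 without total RNA replicate 2 and 2 under scaling by size alone, and the count of lower genes was 1 without each library in turn.

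The checkpoint list, which runs from the DNA damage kinases to the adaptor proteins that hold phosphorylated CDC25, had 8 of 20 genes higher, 5 lower and 7 in neither direction, with a median of 0.34. That is 40% higher and 25% lower, against 20.5% and 21.2% of all tested genes, so the share of lower genes was near that of all genes. Of the adaptors, 4 of 6 Ywha genes and Sfn passed as higher. Ywhae had 1374 and 1113 CPM in RPF against 542 and 485 CPM in total RNA (1.28 ± 0.20, adjusted p = 0.00296). Sfn had 71.9 and 106.7 CPM in RPF against 26.0 and 39.3 CPM in total RNA (1.45 ± 0.26, adjusted p = 0.00502). Clspn, whose product claspin carries the signal to CHEK1, was higher as well (0.89 ± 0.13, adjusted p = 0.0026). Topbp1, an activator of ATR, had 128 and 152 CPM in RPF against 332 and 306 CPM in total RNA (-1.19 ± 0.16, adjusted p = 0.00185). Etaa1, another activator of ATR, stood at -1.07 ± 0.18 (adjusted p = 0.00416), and Hus1, of the sliding clamp that senses damage, at -1.15 ± 0.15 (adjusted p = 0.00186). These 6 genes kept their calls in all 12 settings. Under scaling by size alone, 7 genes of the list were lower. The count of higher genes was 5 without RPF replicate 1, 4 without total RNA replicate 1 or 2, and 3 under scaling by size alone.

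The transcription factors of the G2/M programme had a median of -0.30, with 3 of 15 genes higher, 5 lower and 7 not passing. The 20% that were higher is near the 20.5% of all tested genes, and 33.3% were lower against 21.2%. Lin37, a MuvB subunit, had 32.2 and 33.8 CPM in RPF against 7.34 and 10.2 CPM in total RNA, without overlap (1.91 ± 0.23, adjusted p = 0.00137). Rbbp4, a histone-binding MuvB subunit, was higher as well (0.84 ± 0.19, adjusted p = 0.0115). The DNA-binding MuvB subunit Lin54 was lower, with a mean of 22.3 ± 5.38 CPM in RPF against 44.4 ± 8.69 CPM in total RNA (adjusted p = 0.0131), and so were Lin52 (-0.78 ± 0.21, adjusted p = 0.0211), Foxm1 (-0.64 ± 0.15, adjusted p = 0.0137) and Mybl2, which encodes B-MYB (-0.55 ± 0.17, adjusted p = 0.0365). Mybl2 had 550 and 587 CPM in RPF against 792 and 870 CPM in total RNA. Subunits of one complex thus passed in opposite directions. Mybl2 lost its call without each library in turn (adjusted p = 0.0608 to 0.295), and Lin52 without RPF replicate 1 (0.0517) or either total RNA replicate (0.084 and 0.117) and in the adjusted fit (0.0579). Rbbp4 lost its call under scaling by size alone (0.40, adjusted p = 0.0701). Without total RNA replicate 2, Foxm1 (0.121), Lin54 (0.0621) and Rbbp4 (0.119) did not pass either, and edgeR called 1 gene of the list higher and 0 lower (3 lower at an unadjusted p under 0.05). The count of lower genes was 3 without RPF replicate 1 or total RNA replicate 1, 9 under scaling by size alone and 8 with replicate number as a block.

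A list of genes for the ubiquitin control of the cyclins, CDC25A and WEE1 held ligase subunits, conjugating enzymes, the inhibitor EMI1 (Fbxo5) and the deubiquitinase Usp7. Of these, 5 of 11 passed as higher, 2 as lower and 4 in neither direction, with a median of 0.13. The shares were 45.5% higher and 18.2% lower, against 20.5% and 21.2% over all tested genes. The share of lower genes was thus near that of all genes. Skp1, the other listed gene, was not matched by its symbol. Cdc20, which activates the anaphase-promoting complex against cyclin B, had 518 and 576 CPM in RPF against 232 and 239 CPM in total RNA (1.22 ± 0.15, adjusted p = 0.00163). Ube2c, a conjugating enzyme of that complex, had 209 and 187 against 78.7 and 85.7 CPM (1.27 ± 0.14, adjusted p = 0.00116). The other conjugating enzyme listed, Ube2s, named after its value was seen, did not pass (-0.38 ± 0.15, adjusted p = 0.0822). It had 329 and 317 CPM in RPF against 442 and 399 CPM in total RNA. Rbx1, the RING subunit of cullin ligases, stood at 1.18 ± 0.15 (adjusted p = 0.00154), and Fzr1, the second activator of the anaphase-promoting complex, at 0.52 ± 0.13 (adjusted p = 0.0189). Substrate receptors passed in both directions. Fbxw7 (-0.81 ± 0.18, adjusted p = 0.0119) and Fbxw11 (-0.72 ± 0.15, adjusted p = 0.00844) were lower. Btrc, a close relative of Fbxw11 named after its value was seen, was higher (0.50 ± 0.16, adjusted p = 0.0451). With no count filter, with the DESeq2 test and in protein-coding genes only, the 4 genes passing as higher were Cdc20, Ube2c, Rbx1 and Fzr1. Btrc thus lost its call there, and also under scaling by size alone and without each library in turn. Without total RNA replicate 2, Fzr1 (0.141) and Fbxw11 (0.0726) did not pass, and Fzr1 also failed without total RNA replicate 1 (0.167) and under scaling by size alone (0.084, adjusted p = 0.661). The count of higher genes was 3 without either total RNA replicate and 3 under scaling by size alone, and the count of lower genes was 1 without total RNA replicate 2.

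**Figure D5:**
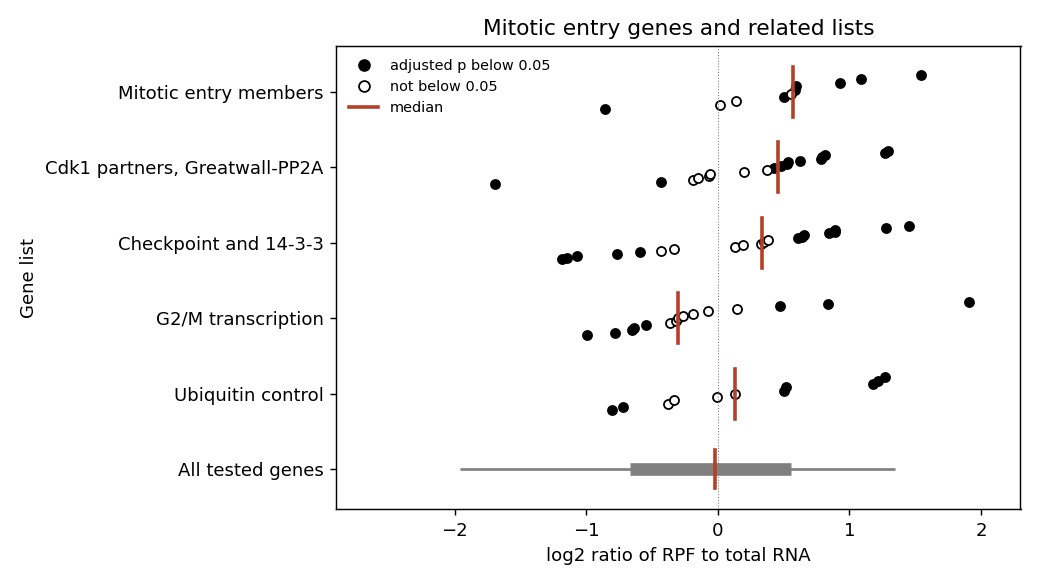
Log2 ratio of RPF to total RNA for the 10 mitotic entry genes and the 4 related lists, each point a gene (filled where the adjusted p was below 0.05), with red lines at the medians. The grey bar shows all tested genes (25th to 75th percentile, -0.67 to 0.56; thin line 5th to 95th, -1.96 to 1.35); the medians ran from 0.57 in the mitotic entry genes to -0.30 in the G2/M transcription list.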

How the data were processed

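Raw counts of reads per gene, not normalised, were deposited by the authors for 2 RPF and 2 total RNA libraries. Bowtie 1.2.3, TopHat2 2.1.1, HTSeq 0.11.2, edgeR 3.26.8 and build mm9 are named in the submitters' processing notes; reads were 50 bases long and RPF libraries were sequenced in 4 runs, per the labels' protocols. The annotation, the counted feature and the strandedness of counting are not given in these sources. How reads were assigned where genes overlap on opposite strands is therefore not known, and some may have gone to the ambiguous tally. Closing tallies outside genes (no feature, ambiguous, not unique) were left out of library sizes: no feature made up 5.95% and 6.66% of tallied reads in RPF and 23.4% and 26.2% in total RNA, ambiguous 4.96% and 8.58% against 0.755% and 0.719%. Symbols came from GENCODE M21, which named 32621 identifiers (87.4%).

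RPF was tested against total RNA with edgeR 4.0.16 (R 4.3.3, limma 3.58.1): TMM scaling, the filterByExpr filter at its defaults (min.count of 10, min.total.count of 15; 13809 genes kept), and the quasi-likelihood test, two-sided. The SE is the log2 ratio over the square root of F. A count of 0 allows 3 counts. The fit was tested on simulated data. Lengths are unions of annotated exons or coding parts; start sites come from 1 APPRIS principal transcript per gene. Alternatives (12) were DESeq2 1.42.0 size factors, its test, library size only, no count filter, limma-voom, replicate block, each library left out, a loess offset for gene structure (span 0.5; coding fraction and length of the exons), and protein-coding genes only. Named genes are the members, Eif4a3, and in each of the 4 lists the 2 highest and 2 lowest ratios plus passing genes by adjusted p, up to 6. Members and lists were chosen with earlier results of these data known.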

Additional observations from a re-analysis of the deposited data

How the results depend on the processing

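Over the 12 alternatives, 366 of 420 values of the 35 named genes kept their direction and side of the threshold, 45 lost the call, 3 gained it and 6 changed sign. The sign changes were Ccnb2 in the fit adjusted for gene structure (-0.0049), Cdc25a with library size only (-0.29) and Ccna2 with library size only (-0.42), with no count filter (-0.026), without RPF replicate 1 (-0.024, and up to 0.062 without RPF replicate 2) and in protein-coding genes only (-0.012). With library size only, 1223 genes were higher and 4961 lower of all tested (19.8% of calls higher, against 49.2% with TMM). The members had 3 higher and 2 lower (median 0.13), the CDK1 partner list 2 and 6, and the checkpoint list 3 and 7. Those counts were 1 and 9 in the G2/M transcription list and 3 and 4 in the ubiquitin list. The CDK1 partner list had 1 lower gene with no count filter, with DESeq2 and in the fit adjusted for gene structure. The members' median minus that of all tested genes ran from 0.43 with that adjustment to 0.71 with no count filter. The cause of these shifts was not tested.

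Leaving out each library in turn gave 1634 to 3123 higher and 1861 to 3310 lower genes of all tested. The members had 3 to 6 higher and 0 to 1 lower, the CDK1 partner list 3 to 9 higher and 1 lower, the checkpoint list 4 to 8 higher, the G2/M transcription list 1 to 3 higher and 0 to 4 lower, and the ubiquitin list 3 to 4 higher and 1 to 2 lower. With replicate number as a block, 4257 genes were higher and 4365 lower, 7 of the members were higher and 1 lower, and the lower genes numbered 8 in the G2/M transcription list and 4 in the ubiquitin list. The labels do not say that a number joins an RPF and a total RNA library; deviations of libraries with the same number correlated at r = 0.41 across genes. Among the members, the lowest counts were those of Cdc25b, Cdc25c and Pkmyt1, at 117 to 322 reads per library. In the lists, Lin37 had 75 and 99 reads in total RNA, and Lin52 had 94 and 97 in RPF.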
